A study of Homo sapiens with 6 samples.

Results

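Protocadherins are cell adhesion proteins of the cadherin superfamily, and the genes described here are those whose symbol starts with PCDH and which the platform annotation gives a probe set of their own. There were 42 such genes among 18417 measured by name: 31 clustered genes in the tandem arrays on the long arm of chromosome 5 (5q), made up of 12 PCDHA, 18 PCDHB and 1 PCDHG gene, and 11 non-clustered genes elsewhere or beside those arrays. RefSeq lists 83 PCDH entries, antisense and locus entries included. Of the 41 without a probe set of their own, PCDHA9, PCDHAC1, PCDHAC2, PCDH11X and PCDH11Y shared a probe set with other symbols, and the other 36, among them all PCDHG genes but PCDHGB4, were not analysed here. RNA came from the established human breast cancer line MDA-MB231, with 3 arrays of untreated parental cells (control) and 3 arrays of 1 clone of the same line with a stable knockdown of G9a, both harvested in logarithmic growth. A clone can differ from its parental line for reasons other than the knockdown, and with 1 clone these cannot be told apart. The labels call the parental cells metastatic and the clone less metastatic, and they do not state whether the replicates were separate cultures. If the replicates were not separate cultures, p-values cover no more than array-to-array spread, which may be technical.

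G9a, encoded by EHMT2, places repressive methyl marks on histone H3. Clustered protocadherins are best known in neurons, where each cell switches on a small, partly random choice of promoters from the tandem arrays and thereby gains a surface identity. That choice depends on promoter methylation, on the architectural protein CTCF and cohesin, and on repressive chromatin, methylation of histone H3 included. PCDHA and PCDHG genes splice a variable exon to shared constant exons, whereas each PCDHB gene is a single exon with its own end. Because the genes of an array are close copies, their probe sets may share signal, and the separate values of neighbours are uncertain.

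The promoters of the tandem arrays carry a shared box around the letters CGCT, and the stretches below show it in 6 of the PCDHB genes described below, with 1 PCDHA and 1 PCDHG gene for comparison. Each is cut from the 250 bases before the gene's start in RefSeq (GRCh38.p14, plus strand of chromosome 5), and capitals mark the box, written GTGGCGCT in these PCDHB genes, GTCGCTG in PCDHA5 and CCGCTGT in PCDHGB4.
PCDHB15 (chr5:141245302-141245349): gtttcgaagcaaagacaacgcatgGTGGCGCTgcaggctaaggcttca
PCDHB2 (chr5:141094532-141094579): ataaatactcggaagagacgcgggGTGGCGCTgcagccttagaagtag
PCDHB5 (chr5:141135167-141135205): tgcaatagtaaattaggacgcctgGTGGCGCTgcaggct
PCDHB7 (chr5:141172554-141172601): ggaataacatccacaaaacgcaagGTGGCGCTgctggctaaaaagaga
PCDHB14 (chr5:141223251-141223298): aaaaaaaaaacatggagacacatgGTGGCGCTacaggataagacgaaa
PCDHB3 (chr5:141100381-141100428): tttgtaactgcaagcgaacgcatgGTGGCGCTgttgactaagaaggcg
PCDHA5 (chr5:140821532-140821578): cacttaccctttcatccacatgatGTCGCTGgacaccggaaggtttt
PCDHGB4 (chr5:141387608-141387654): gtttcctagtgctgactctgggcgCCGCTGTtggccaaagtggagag

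RefSeq's promoter table held a window for 34 of the 42 genes, PCDHB6 not among them. These 3 boxes were picked after the family's windows had been read, from letters that recur in them, and were then searched on both strands in every window of the table. GTGGCGCT stood in the windows of 12 of 14 PCDHB genes, against 0.940% of all 35116 windows, and ended between 7 and 75 bases before the start. GTCGCTG stood in 6 of 10 PCDHA windows (2.37% of all windows) but in 0 of 3 windows of PCDHA genes outside the 42, and it was also in 6 of 19 windows of other PCDHG genes. CCGCTGT stood in the window of PCDHGB4 and in 10 of the 19 other PCDHG windows (3.03% of all windows). The shorter core CGCT, which is part of each box, was in 10 of 10 PCDHA and 13 of 14 PCDHB windows. It was also in 64.8% of all windows, so its presence sets the family apart little. The longer boxes were rarer over all windows, but their share in the family follows in part from how they were picked. None of the 9 non-clustered genes with a window held any of the 3 boxes. The PCDHA and PCDHB windows were poor in CpG: the median was 5 CpG in PCDHA and 6 in PCDHB, against 10 in the non-clustered genes and 11 over all windows. PCDHGB4 was not, with 11 and 13 CpG in its 2 windows.

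As the check on the knockdown, EHMT2 read 10.21, 10.27 and 9.93 (log2 intensity) on the control arrays and 9.66, 9.59 and 9.51 on the knockdown arrays, a fall of 0.55 ± 0.10 (SE) on the log2 scale (limma, adjusted p = 0.0259); with 1 array left out it passed in 1 of 6 fits (the one lacking control replicate 3), and the adjusted p ran from 0.0101 to 0.122. All differences below subtract control from knockdown, in log2 units, and come from a limma fit across all genes with n = 3 arrays per group, and a gene passed at an adjusted p of 0.05 over all 18417 genes. Terciles below divide the genes by mean level over the 6 arrays. The defining genes of this mesenchymal-like line, VIM, CD44, AXL, SPARC, MSN and CAV1, all lay in the highest tercile. Of the genes expected low, ESR1, PGR and CDH1 lay in the lowest tercile, EPCAM in the middle and ERBB2 and KRT18 in the highest. CDH1 rose by 0.45 (limma, adjusted p = 0.0177). It read 7.10, 7.10 and 7.28 on the control arrays and 7.62, 7.58 and 7.64 on the knockdown arrays. None of the other genes expected high or low passed. Of 5 measured neuronal markers 3 lay in the lowest tercile, and SYT1 fell by 0.42 (limma, adjusted p = 0.0253). Of 5 endothelial markers CDH5 rose by 0.71 and KDR fell by 0.64 (limma, adjusted p = 0.0210 and 0.00552), and none of 6 leukocyte and 5 fibroblast markers passed. With 1 array left out SYT1 passed in 1 of 6 fits, CDH5 in 2 and KDR in 6. These lists had mean levels per array of 7.14 to 7.40 (control) and 7.01 to 7.26 (knockdown) for neurons, 7.27 to 7.47 and 7.43 to 7.51 for endothelium, 7.27 to 7.33 and 7.27 to 7.41 for leukocytes and 6.83 to 6.99 and 6.90 to 7.07 for fibroblasts, and their part in the protocadherin values was not tested. In bulk RNA, fewer cells with a transcript and less transcript per cell cannot be told apart.

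No protocadherin passed the test in either direction (limma, 0 of 42), where 3.05% of all genes did, 1.28% higher and 1.78% lower. At an unadjusted p under 0.05 there were 2, PCDHB15 (higher in the knockdown) and PCDHB6 (lower), against 19.4% of all genes. With limma's array weights 3 of the 42 passed, PCDHB3 and PCDHB6 (lower) and PCDHA5 (higher). In that fit 1610 of all 18417 genes passed lower and 1718 higher. Differences ran from -0.33 for PCDHB6 to 0.42 for PCDHB15, and 32 of the 42 were above 0, or 76.2%, beside 59.6% of all genes. In the lowest tercile, which holds 25 of the 42, 72.0% of the members and 68.6% of all genes were above 0, and in the middle tercile 13 of 16 members and 61.7% of all genes. The count was 27 of 42 after quantile normalization (64.3%, beside 58.4% of all genes), 25 without control replicate 2 (59.5% beside 59.4%) and 26 without knockdown replicate 1 (61.9% beside 54.9%). The family's median difference was 0.08 against 0.03 over all genes. The 95% intervals of single members, which are not adjusted over all genes, reached between 0.14 and 0.51 to each side of the value. A call after adjustment asked for more, as the intervals of PCDHB15 and PCDHB6 lay clear of 0 and neither gene passed. Changes larger than those bounds could thus be missed as well, and the absence of a call does not show that a gene was the same in both groups.

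**Figure D1:**
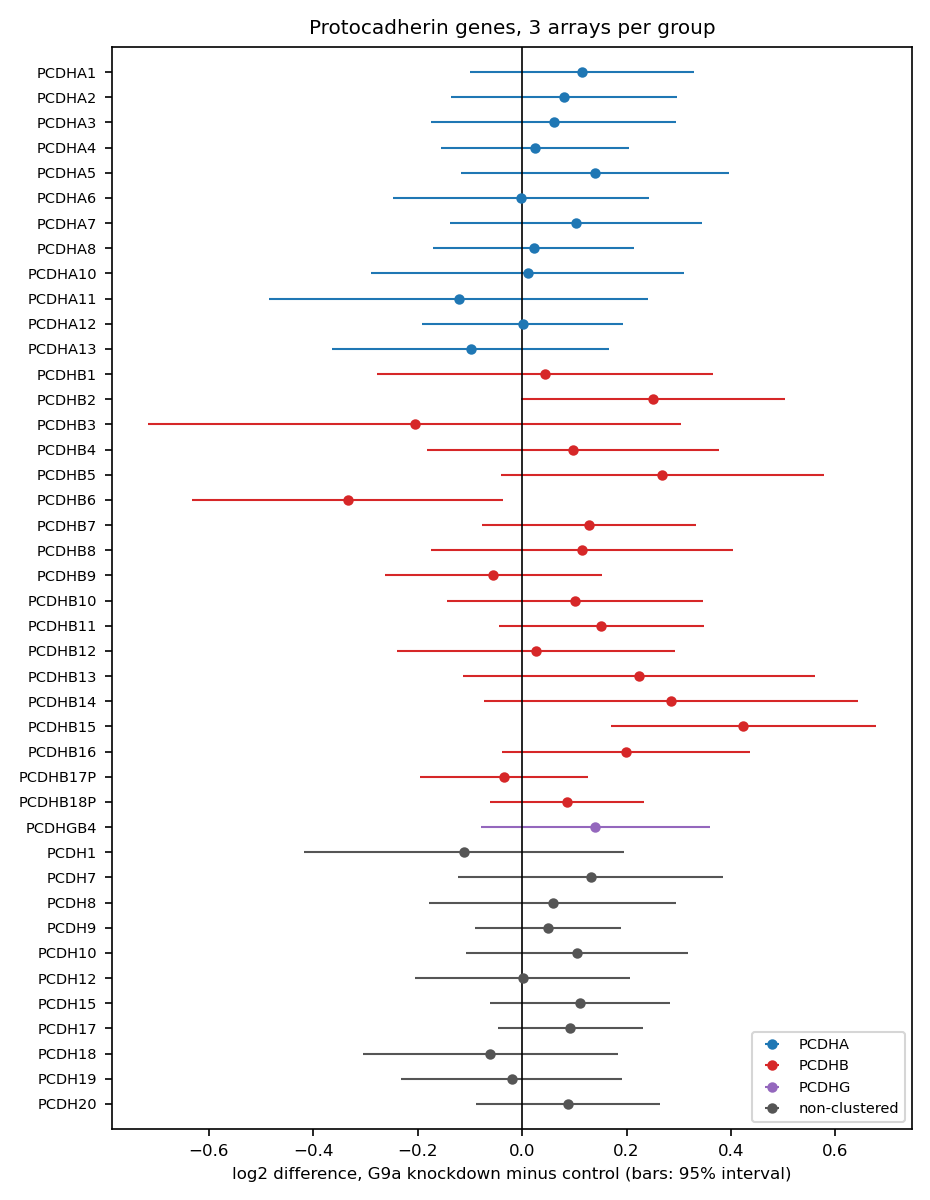
Difference between G9a knockdown and control (x axis, log2 scale, with 95% intervals from limma) for each of the 42 protocadherin genes (y axis), coloured by cluster, n = 3 arrays per group. The intervals of PCDHB15 and PCDHB6 are the ones that do not reach 0; neither gene passed after adjustment over all genes.

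With the groups read array by array, 6 members had every knockdown array above every control array, PCDHB2, PCDHB5, PCDHB7, PCDHB15, PCDHB18P and PCDH17, and 0 had every knockdown array below. Over all genes the shares were 14.3% and 12.7%. The 6 make up the same share of the family as the background, so this count says nothing particular about protocadherins. Without control replicate 3 the counts were 12 higher and 3 lower, where all genes gave 23.6% and 19.6%; the 3 lower were PCDHB3, PCDHB6 and PCDHB9, and 6 of the 12 higher were PCDHA genes.

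PCDHB15, a single-exon adhesion gene at the far end of the beta array, had the largest difference. It read 5.55, 5.95 and 5.59 on the control arrays and 6.07, 6.23 and 6.07 on the knockdown arrays. All knockdown arrays lay above control replicate 2, which was the highest control by a wide margin. The difference was 0.42 ± 0.11 (SE), or 1.34-fold (95% interval 0.17 to 0.68; limma, adjusted p = 0.0823). It lay between 0.35 and 0.55 with any single array left out and passed without control replicate 2 (adjusted p = 0.0379). PCDHB15 lay in the lowest tercile, where no detection call separates signal from background.

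PCDHB6 was the largest fall in value among the members. Its control arrays read 7.50, 7.45 and 7.18 and its knockdown arrays 6.76, 7.18 and 7.19. Knockdown replicate 1 stood well below the others, and control replicate 3 touched the upper knockdown arrays, so the groups just overlapped. The difference was -0.33 ± 0.13 (SE; 95% interval -0.63 to -0.04; limma, adjusted p = 0.210), and it was -0.20 without knockdown replicate 1.

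PCDHB3, which lies close to PCDHB2 in the array, had the widest control spread of the named genes. Control replicates 1 and 2 read 7.26 and 7.16, control replicate 3 read 6.31, and the knockdown arrays read 6.79, 6.76 and 6.56. The knockdown thus lay between the control arrays. The difference was -0.21 ± 0.22 (SE; limma, adjusted p = 0.658), and without control replicate 3 it was -0.51 and passed (adjusted p = 0.0352).

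PCDHB5 was the 1 protocadherin in the highest tercile. It read 10.47, 10.49 and 9.96 in control and 10.51, 10.65 and 10.57 in the knockdown. Control replicates 1 and 2 lay just under the knockdown arrays, and control replicate 3 far under them. The difference of 0.27 ± 0.13 (SE; limma, adjusted p = 0.323) was 0.10 without control replicate 3.

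PCDHB2 read 9.27, 9.24 and 8.88 in control and 9.41, 9.46 and 9.27 in the knockdown. Its difference was 0.25 ± 0.11 (SE; limma, adjusted p = 0.263), and 0.12 without control replicate 3. PCDHB7 read 6.77, 6.76 and 6.46 in control and 6.80, 6.78 and 6.80 in the knockdown. Here too control replicates 1 and 2 sat almost level with the knockdown arrays, and the difference of 0.13 shrank to 0.03 without control replicate 3.

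**Figure D2:**
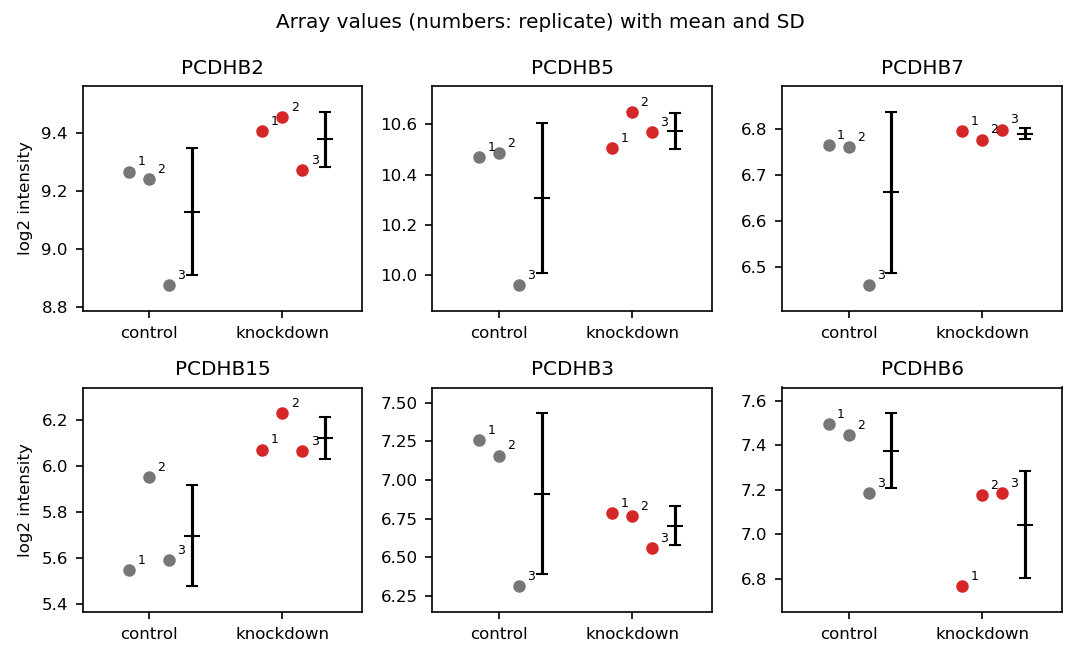
Log2 intensity (y axis, a scale of its own in each panel) of 6 PCDHB genes on each array, grouped by control and knockdown (x axis), with replicate numbers, means and SD bars (n = 3). Control replicate 3 is the lowest array in the panels of PCDHB2, PCDHB5, PCDHB7 and PCDHB3, while in PCDHB15 the gap to the knockdown arrays does not rest on it.

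PCDHB14, PCDHB13 and PCDHB16 also shrank without control replicate 3. PCDHB14 read 8.57, 8.54 and 7.96 in control and 8.50, 8.71 and 8.72 in the knockdown, and its difference was 0.28, or 0.09 without control replicate 3. PCDHB13 read 8.24, 8.41 and 7.84 against 8.23, 8.58 and 8.35, a difference of 0.22 that became 0.06. PCDHB16 read 8.84, 8.91 and 8.53 against 8.87, 9.04 and 8.96, with 0.20 and then 0.08. In all 3 genes the first pair of control arrays lay among or close to the knockdown arrays. PCDHB11 (0.15), PCDHB8 (0.11), PCDHB10 (0.10), PCDHB4 (0.10) and PCDHB12 (0.03) had smaller positive values and PCDHB9 a negative one (-0.05), with adjusted p from 0.377 to 0.926. The pseudogene PCDHB18P was at 0.09, with groups that were separate by a hair, as control replicate 3 and knockdown replicate 3 both read 6.77. Not every gene of the array shrank without control replicate 3: PCDHB18P went to 0.11 and PCDHB1 from 0.04 to 0.12, while PCDHB6 and PCDHB9 moved further below 0, to -0.43 and -0.14.

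Control replicate 3 was the lowest of the 6 arrays in 13 of the 18 PCDHB genes, against 24.8% of all genes, and the highest in 0 of 18. For PCDHA it was the reverse: control replicate 3 was the highest array in 8 of 12 genes (19.8% of all genes) and the lowest in 0, and control replicate 2 was the lowest in 11 of 12. As medians over genes relative to each gene's 6-array mean, PCDHB stood at 0.02, 0.04 and -0.26 on the control arrays and at 0.0055, 0.15 and 0.04 on the knockdown arrays. PCDHA stood at -0.04, -0.19 and 0.16 on the control arrays and at 0.11, -0.07 and -0.02 on the knockdown arrays. The control arrays therefore spanned a wider range than the distance between the groups, and control replicate 3 stood at opposite ends of it in PCDHB and PCDHA. The median SD of the control arrays was 0.18 in PCDHB and 0.19 in PCDHA, against 0.09 over all genes; on the knockdown arrays it was 0.11, 0.13 and 0.08.

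**Figure D3:**
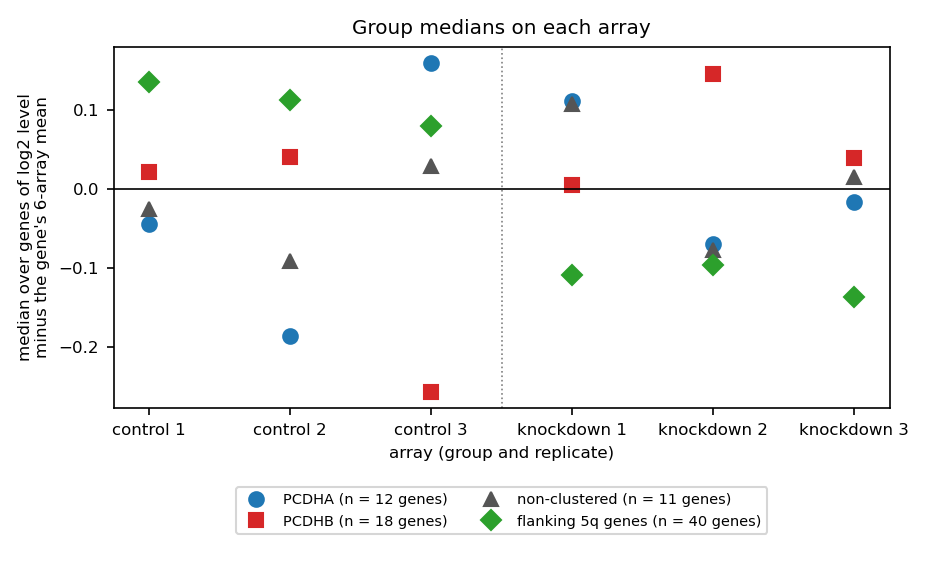
Median over the genes of a group of the log2 level minus that gene's own 6-array mean (y axis), on each of the 6 arrays (x axis), for 12 PCDHA, 18 PCDHB and 11 non-clustered protocadherins and the 40 genes that flank the clusters. PCDHB is lowest and PCDHA highest on control replicate 3, while the flanking genes lie above 0 on every control array and below 0 on every knockdown array.

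PCDHB genes had a median difference of 0.11, with 14 of 18 above 0, and 0.05 with 13 of 18 above 0 without control replicate 3. With limma's array weights the median was 0.04 and 11 of 18 were above 0 (61.1%, beside 56% of all genes). With control replicate 3 and knockdown replicate 1 both left out, the 2 arrays that limma weighted lowest, the median was 0.08 and 12 of 18 were above 0. PCDHA genes had a median of 0.02, with 9 of 12 above 0, a direction that was not stable. It was -0.0051 with 5 above 0 after quantile normalization, -0.03 with 3 above 0 without control replicate 2, -0.0035 with 6 above 0 without control replicate 1, -0.01 with 5 above 0 without knockdown replicate 1, and 0.13 with 10 above 0 without control replicate 3. Values ran from -0.12 for PCDHA11 to 0.14 for PCDHA5, and no PCDHA gene had separate groups with all 6 arrays. PCDHA5 read 7.67, 7.50 and 7.92 in control and 7.89, 7.70 and 7.92 in the knockdown, which overlapped widely (adjusted p = 0.537). PCDHA2 had a second probe set, whose difference was 0.15 beside 0.08 for the one kept. A probe set shared by 15 PCDHA symbols was at 0.03. PCDHGB4, the 1 gamma gene measured, read 7.73, 7.79 and 7.84 in control and 8.13, 7.90 and 7.75 in the knockdown, with overlap and a difference of 0.14 (limma, adjusted p = 0.468). The differences of the 12 PCDHB genes with the GTGGCGCT box in their window ran from -0.21 to 0.42, with 10 above 0, and PCDHB1 and PCDHB8, whose windows lacked it, were at 0.04 and 0.11.

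The non-clustered genes lay close to 0. Their median was 0.06, with 8 of 11 above 0, so that the clustered genes (median 0.09, 24 of 31 above 0) exceeded them by 0.03, which is less than the SD of 0.07 of that quantity between replicate arrays. The sign of this gap was not stable: it ran from -0.04 without knockdown replicate 2 to 0.07 without control replicate 1. With the probe sets of several symbols added it was -0.0046. Of the 11 genes 10 lay in the lowest tercile, against 15 of the 31 clustered genes. Within that tercile the order was the reverse, with a median of 0.07 for the 10 non-clustered and 0.02 for the 15 clustered genes.

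PCDH1, an epithelial protocadherin on 5q beyond the gamma array and the 1 non-clustered gene above the lowest tercile, read 8.30, 8.29 and 8.77 in control and 8.47, 8.21 and 8.34 in the knockdown. Control replicate 3 was the highest array, and the difference of -0.11 ± 0.13 (SE; limma, adjusted p = 0.694) turned to 0.05 without it. PCDH7, known from brain metastasis of breast cancer, read 6.43, 6.75 and 6.73 against 6.80, 6.60 and 6.91, with overlapping groups and a difference of 0.13 (95% interval -0.12 to 0.39) that was 0.03 without control replicate 1. PCDH10, PCDH17 and PCDH20, which are often silenced by promoter methylation in carcinomas, were at 0.10, 0.09 and 0.09, and PCDH10 was at 0.03 without control replicate 2. Of these PCDH17 had separate groups, at 6.67, 6.61 and 6.67 in control against 6.81, 6.71 and 6.71 (adjusted p = 0.446). PCDH9 (0.05), PCDH8 (0.06), PCDH15, a component of the hair cell tip link (0.11), the endothelial PCDH12 (0.0012), PCDH18 (-0.06) and PCDH19, the X-linked epilepsy gene (-0.02), had adjusted p from 0.466 to 0.997.

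The neighbours of the clusters were lower in the knockdown. The 20 tested genes on either side of the arrays in RefSeq order, 40 in all, had a median difference of -0.25, and 35 of them were below 0. All 750 tested genes of chromosome 5 had a median of -0.06, with 482 below 0, and the 707 of chromosome 4 a median of -0.08, with 475 below 0, so values below 0 were not confined to these neighbours. Of the 40, 12 fell and none rose (limma, adjusted p of 0.05): the chaperone gene PFDN1, HBEGF, a ligand of the EGF receptor, CYSTM1, VTRNA1-3, FCHSD1, DELE1, RNF14, SPRY4, FGF1, YIPF5, PRELID2 and LARS1, a tRNA synthetase gene. Over all genes 1.78% fell, and on chromosome 5 72 of 750. The number of the 40 that fell depended on the arrays and on the fit: 3, 1 and 9 without control replicates 1, 2 and 3, 0, 1 and 0 without knockdown replicates 1, 2 and 3, and 3 with the replicate number as a block. It was 26 with array weights, 19 with an intensity trend, 18 of 34 with the lowest tercile left out and 0 with every probe set tested. The count over all genes moved as well. From 327 of 18417 it went to 1610, 649, 574 of 12278 and 27 in these fits, in that order. With the block 116 of all genes fell, and 23 to 313 with 1 array left out. The median of the 40 flanking genes stayed between -0.26 and -0.22 in the fits without 1 array, with 35 or 36 of 40 below 0. That genes of a long stretch of 5q around the arrays were lower in the clone was known when these neighbours were chosen.

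Of the 18 PCDHB genes 14 had values above 0 between these lower neighbours, while PCDHB3, PCDHB6, PCDHB9 and the pseudogene PCDHB17P (-0.03) lay below 0. In the flanks the fall was smaller for dim genes: the median was -0.09 for the 6 flanking genes in the lowest tercile, -0.19 for the 15 in the middle and -0.29 for the 19 in the highest tercile. The PCDHB genes ran the other way, with a median of 0.07 for the 8 in the lowest tercile, 0.15 for the 9 in the middle and 0.27 for PCDHB5. Of the 10 PCDHB genes outside the lowest tercile, 9 were above 0 with a median of 0.17. Without control replicate 3 the count was 8 and the median 0.06, and with array weights they were 7 and 0.06. For the 34 flanking genes outside that tercile, 3 were above 0 and the median was -0.27. Within the arrays, TAF7, a general transcription factor gene between the beta and gamma genes, read -0.31 (adjusted p = 0.0572), with every knockdown array below every control array, while SLC25A2 beside it was at 0.08. The gap between PCDHB and its flanks was not tested, since the genes of a group are not replicates.

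**Figure D4:**
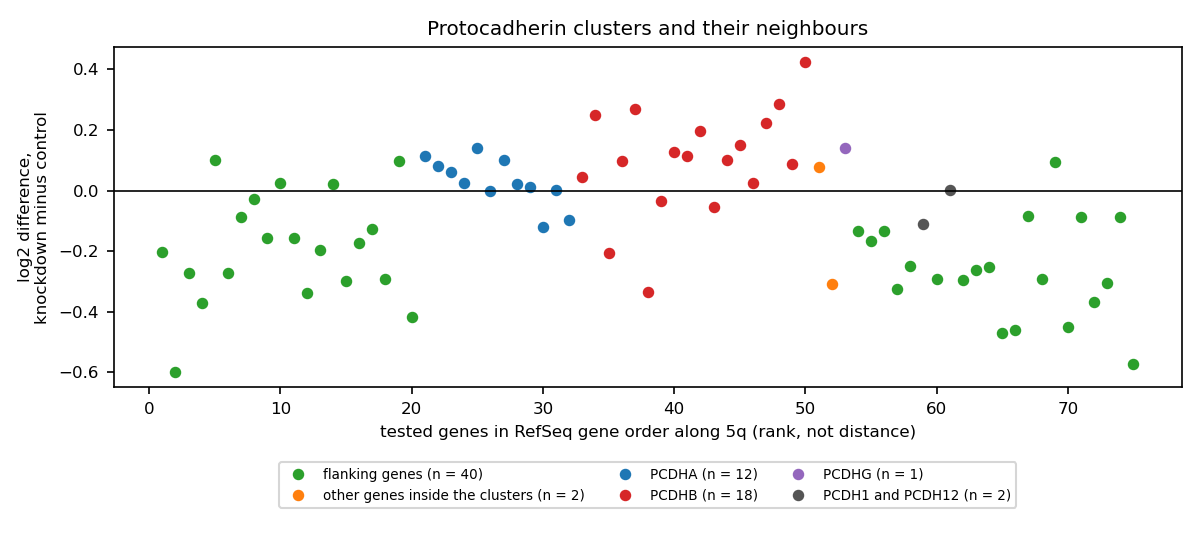
Difference between G9a knockdown and control (y axis, log2 scale) for the tested genes from 20 before to 20 after the protocadherin arrays on 5q, in RefSeq gene order (x axis, rank and not distance). Most flanking genes lie below 0, with a median of -0.25. Above 0 lie 14 of 18 PCDHB genes (11 with array weights) and 9 of 12 PCDHA genes (5 after quantile normalization).

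PCDH1 and PCDH12, which lie among the flanking genes on the gamma side, were at -0.11 and 0.0012 where the 20 genes nearest to each had medians of -0.28 and -0.26. PCDH10 and PCDH18, next to each other on chromosome 4, had values of 0.10 and -0.06 where their 20 neighbours had a median of -0.18, with 17 of 20 below 0. Around PCDH7, on the same chromosome, the median was -0.09. The neighbours of the members on chromosomes 10, 13 and X had medians between -0.04 and 0.04. PCDH7, PCDH10, PCDH12 and PCDH18 were all in the lowest tercile.

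Among genes known to govern the clusters, EHMT2 itself was the 1 that passed. Of 23 measured regulators 0 rose and 1, EHMT2, fell; the median difference was 0.03. CTCF, which binds the protocadherin promoters, was at 0.17 (adjusted p = 0.209), the G9a partner EHMT1 at 0.20 (0.101), the DNA methyltransferase DNMT3B at -0.24 (0.124) and SMCHD1, a repressor of the clusters, at 0.0053 (0.979). Of 20 measured intracellular partners of protocadherins, CYFIP2, a subunit of the WAVE actin complex, fell by 0.64 ± 0.06 (SE; limma, adjusted p = 0.00345), from 9.23 ± 0.04 to 8.59 ± 0.02 (SD), and none rose. CYFIP2 lies on chromosome 5 as well, and it passed in each of the 6 fits without 1 array. Its paralog CYFIP1 was at 0.14 and the kinase gene FYN at -0.33 (adjusted p = 0.0807). None of 19 genes passed in a list of other large and related cadherins, which also held FJX1, not itself a cadherin gene. FAT3 (0.26) and FAT4 (-0.22) lay farthest from 0 (limma, adjusted p = 0.0731 and 0.115).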

How the data were processed

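Expression was measured in 6 samples, 1 array each. The deposited values are log2 intensities, 1 per probe set and array, which the authors had summarised before deposit; for the software, the scaling and the log base the sources used here give nothing, and log2 was inferred from the range of 2.13 to 14.8. Array medians were 7.79 to 7.86, and no pair of arrays was identical. No detection call was used, and precision is limited by having 3 arrays per group.

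Of 33297 probe sets, 19460 had 1 gene symbol in the platform annotation, 1754 several and 12083 were not listed. For 19429 of the 19460 the gene was found in RefSeq (GRCh38.p14), and its RefSeq symbol was used. No protocadherin symbol changed in this step. Per gene the probe set with the highest mean was kept. Differences and two-sided tests came from limma 3.58.1 in R 4.3.3 (lmFit, eBayes, 4 residual degrees of freedom) with Benjamini-Hochberg adjustment over all 18417 genes; intervals are 95% intervals from the same fit. Terciles divide the genes by mean level over the 6 arrays. Of the steps, only the limma fit was tested on simulated arrays, which had independent noise and no outlying array. Named were members past the threshold, those with separate groups, and those of a preset list. PCDHA5, PCDHA11, PCDHA2, PCDHB1, PCDHGB4, PCDH8, PCDH12, PCDH15 and list genes that did not pass were named after their values were seen. The same holds for PCDHA3, PCDHA4, PCDHA6, PCDHA7, PCDHA8, PCDHA10, PCDHA12 and PCDHB17P. The members and lists were chosen with earlier results of these data known. The main fit did not pair arrays by replicate number. Deviations from group means of same-numbered arrays correlated at -0.179, 0.0560 and 0.0478 across probe sets. These values cannot show whether the arrays were handled in pairs. Alternatives were quantile normalization, median centring, a filter on low values, an intensity trend, array weights, a replicate block, other probe set choices and leaving out arrays.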

Additional observations from a re-analysis of the deposited data

How the results depend on the processing

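Over all genes, 562 were called. The number was 3328 with array weights, 1083 with an intensity trend, 972 with the lowest tercile left out and 217 with the replicate block. It was 343 without control replicate 3 and knockdown replicate 1 together (added after seeing the data), and 44 to 535 with 1 array left out. When every probe set was tested, 60 of 33297 probe sets were called, and 27 genes were called lower and 20 higher. The block changed no protocadherin call. Protocadherins called numbered 0, but 3 with array weights (PCDHA5 at 0.31, PCDHB3 at -0.50 and PCDHB6 at -0.31), and 0 to 1 with 1 array left out. With the lowest tercile left out, the clustered median was 0.13, the non-clustered value -0.11 (PCDH1 alone) and the gap 0.24. With 1 array left out the clustered median was 0.041 to 0.092 and that of the flanking genes -0.26 to -0.22. Among the members of the preset list and those with separate groups, 4 changed sign with array weights: PCDH1 (0.010), PCDHB10 (-0.039), PCDHB12 (-0.085) and PCDHB4 (-0.020). Without control replicate 3 and knockdown replicate 1 together PCDHB12 (-0.12) did. With 1 array left out PCDH1 ran from -0.19 to 0.047, PCDH19 from -0.092 to 0.065, PCDHB12 from -0.097 to 0.13, PCDHB4 from -0.023 to 0.19 and PCDHB9 from -0.14 to 0.0016. The PCDHA median was -0.0051 after quantile normalization and -0.03 to 0.13 with 1 array left out. Of the 12 PCDHA genes 9 were above 0, but 5 after quantile normalization, 7 after median centring and 11 with array weights. Of the 18 PCDHB genes 14 were above 0, but 11 with array weights, where the PCDHB median was 0.042. With 1 array left out, PCDHA2 (-0.019 to 0.17), PCDHB1 (-0.091 to 0.20), PCDH8 (-0.043 to 0.14) and PCDH12 (-0.082 to 0.059) also crossed 0. So did PCDHA3, PCDHA4, PCDHA6, PCDHA7, PCDHA8, PCDHA10 (-0.076 to 0.16), PCDHA12 and the pseudogene PCDHB17P (-0.067 to 0.025). Array weights and left-out arrays change which arrays count; beyond that the cause was not tested.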
